A study of Homo sapiens with 24 samples.

Results

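The response to siZBED2-2, the second of a pair of siRNAs directed at ZBED2, was read in RT112 and SCaBER, 2 established human bladder cancer cell lines, by 3′ RNA-seq, which sequences the end of each polyadenylated transcript. The comparison took the siZBED2-2 libraries and the siControl libraries of both lines, 8 of the 24 libraries of the series, with 2 libraries per treatment in each line, and treated the line as a block, so that 4 libraries stood on each side. RT112 was classed by the study as luminal papillary (LumP) and grown in RPMI, and SCaBER as basal/squamous (Ba/Sq) and grown in DMEM. All cells, controls included, were transfected with a lipid reagent, Lipofectamine RNAi Max, and the siControl libraries received the control siRNA labelled number 2. The other treatments were siZBED2-1, a different siRNA against the same gene, siFOXA1 (the siRNA labelled number 1), and siFOXA1 combined with either ZBED2 siRNA. The labels give a replicate number within each treatment and tag it as an experiment batch replicate, and they do not say whether replicates were separate cultures or shared a batch across treatments, so the p-values measure the spread between these libraries, which may be technical.

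ZBED2 is a zinc finger transcription factor of the BED family, which has been described as a repressor of interferon-stimulated genes that occupies sites also bound by IRF1. Interferons signal through receptors and JAK kinases to STAT and IRF proteins, which bind interferon-stimulated response elements and switch on antiviral and antigen presentation genes. The study placed ZBED2 among candidate transcription factors of a basal network in bladder cancer, whereas FOXA1 marks luminal cells. An siRNA lowers its target mRNA by base pairing, and it can also lower other transcripts that pair with its seed. The sequence of siZBED2-2 was not used here, and no seed match was searched.

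The 8 libraries held 4526890 to 6119210 counts, with a median of 5191110, and 14684 to 16082 genes with at least 1 count. Transcripts of the mitochondrial genome took 8.22% to 17.8% of the counts, and the lowest share was that of RT112 siZBED2-2 replicate 2. Levels are given in CPM, the counts of a gene scaled to a common library total, on TMM-scaled library sizes, a scale that was not divided by transcript length and was used to compare a gene between libraries. A level of 3 counts corresponded to 0.482 to 0.645 CPM. The line labels were checked on marker genes. Summed over 8 luminal urothelial markers, the RT112 libraries stood at 766 to 893 CPM and the SCaBER libraries at 39.2 to 58.4 CPM, whereas 8 basal and squamous markers summed to 998 to 1164 CPM in RT112 and 3689 to 4963 CPM in SCaBER. Immune markers (PTPRC, CD3E and LYZ) were at 0 in all 8 libraries, fibroblast markers summed to 2.89 to 12.2 CPM and endothelial markers to 0 to 5.59 CPM. In bulk RNA fewer cells of a type and less RNA per cell cannot be told apart.

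The target itself was lower, relative to library size, in every siZBED2-2 library, to an unequal extent. ZBED2 (ENSG00000177494, chr3:111592900-111595346, GRCh38) had 101 and 92 counts in the RT112 siControl libraries and 38 and 36 with siZBED2-2. In SCaBER it had 101 and 96 counts with siControl and 48 and 100 with siZBED2-2. Scaled to CPM, these were 21.7 and 16.7 CPM with siControl and 7.16 and 6.22 CPM with siZBED2-2 in RT112, and 19.2 and 19.3 CPM against 8.89 and 16.1 CPM in SCaBER. The RT112 groups were well apart, whereas SCaBER siZBED2-2 replicate 2 lay just under its controls. Over both lines ZBED2 differed by a log2 fold change of -1.04 ± 0.29 (standard error), which did not pass the edgeR test (adjusted p = 0.158, unadjusted p = 0.00194). Fitted on the 12 libraries of its line, RT112 gave -1.52 ± 0.79 (adjusted p = 0.903, unadjusted p = 0.0670). SCaBER gave -0.61 ± 0.43 (adjusted p = 0.844, unadjusted p = 0.165). On the 4 libraries compared alone, RT112 was at -1.51 (adjusted p = 0.250, unadjusted p = 0.00159) and SCaBER at -0.61 (adjusted p = 0.770, unadjusted p = 0.108). Without SCaBER siZBED2-2 replicate 2 the joint value was -1.34 and passed (adjusted p = 0.0412). The depth of about 100 counts in a control library limits the precision of each value.

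**Figure D1:**
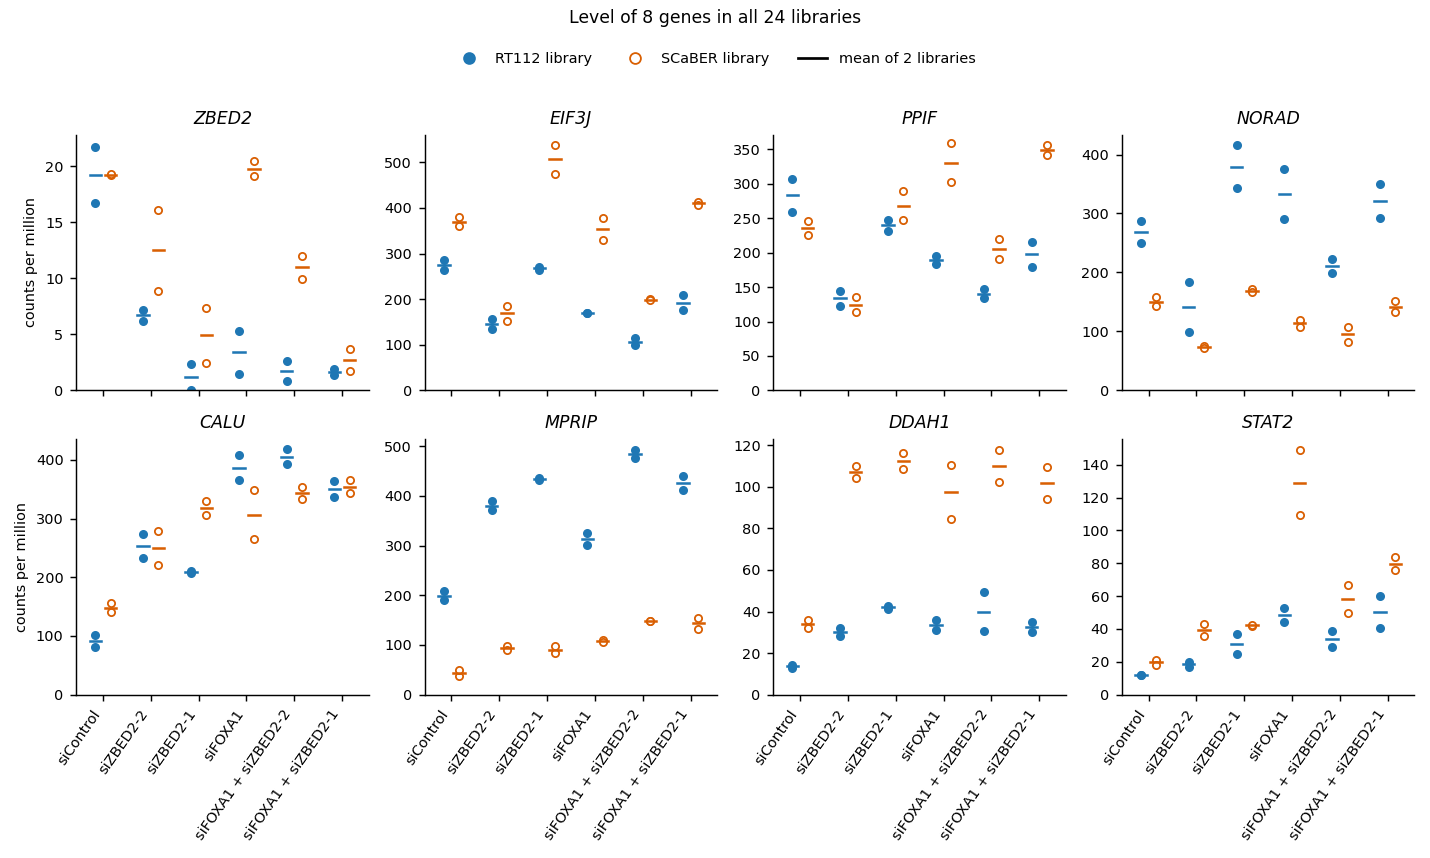
CPM (vertical axis, from 0) of 8 genes in all 24 libraries, by treatment. Filled blue points are RT112 libraries, open orange points SCaBER libraries, and bars the mean of 2 libraries. EIF3J, PPIF and NORAD were lowest in the libraries with siZBED2-2, alone or with siFOXA1, whereas CALU, MPRIP and DDAH1 were lowest in the siControl libraries.

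Few genes were called with siZBED2-2 in the joint comparison, and more of the calls were higher than lower. How many genes changed without a call was not tested. Of 13492 genes tested, 89 were called at an adjusted p under 0.05, or 0.66%, with 66 higher (0.489%) and 23 lower (0.17%). Of these, 18 changed at least 2-fold. The called genes fell into no single one of the lists examined: those that fell included a translation initiation subunit (EIF3J), a mitochondrial permeability regulator (PPIF), a long non-coding RNA that guards chromosome number (NORAD) and a nuclear lamin (LMNB1), and those that rose included a calcium-binding protein of the secretory pathway (CALU), actin regulators (MPRIP, TPM3), lactate dehydrogenase A (LDHA) and a small GTPase of late endosomes (RAB7A). All 4 siZBED2-2 libraries lay beyond both siControl libraries of their own line for 63 of the 66 higher genes and for 22 of the 23 lower genes, where 4.25% of all tested genes did so upward and 4.25% downward. The exceptions were INHBA, MYH14 and EREG among the higher genes and TENT5A among the lower genes. The calls were made on these same libraries, so this separation largely follows from them and is a description. Without SCaBER siZBED2-2 replicate 2, the library that kept most of its ZBED2, 79 genes were called and 66 were among the 89. Without SCaBER siZBED2-2 replicate 1 the number was 45. Of the 89 calls, 36 were kept in every one of the 8 fits without 1 library, and 53 were lost in at least 1. By limma on log2(TPM + 1) 0 genes passed, with 740 at an unadjusted p under 0.05. The 12 genes in each direction described next had the smallest p-values among called genes whose siZBED2-2 libraries lay beyond their controls. Their lack of overlap was therefore fixed by the choice. Of these genes, SRP19 and SERPINH1 were the ones whose call was lost when a single library was left out.

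Among the genes that fell, EIF3J, PPIF and NORAD had the smallest p-values. EIF3J (chr15:44537147-44562803), a subunit of the eIF3 complex that loads mRNA on the small ribosomal subunit, stood at 264 and 286 CPM with siControl and 135 and 156 CPM with siZBED2-2 in RT112, and 361 and 379.8 CPM against 152 and 186 CPM in SCaBER. Its 4 siZBED2-2 libraries were all below every control, a log2 fold change of -1.02 ± 0.10 (adjusted p = 5.64e-05). PPIF (chr10:79347469-79355334), which encodes cyclophilin D of the mitochondrial matrix, stood at 259.7 and 307 CPM with siControl and 123 and 145 CPM with siZBED2-2 in RT112, and 226 and 246 CPM against 114 and 135 CPM in SCaBER. The groups did not overlap in either line, and PPIF fell by 0.99 ± 0.10 on the log2 scale (adjusted p = 5.64e-05).

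NORAD (chr20:36045618-36050960) binds PUMILIO proteins. It stood at 249.6 and 287 CPM with siControl and 99.3 and 184 CPM with siZBED2-2 in RT112, and 158 and 142 CPM against 75.9 and 71.4 CPM in SCaBER. RT112 siZBED2-2 replicate 2 was the highest of the 4 siZBED2-2 libraries and still below both controls, and the joint change was -0.96 ± 0.14 (adjusted p = 0.00153). LMNB1 (chr5:126776623-126837020), the B-type lamin that lines the nuclear envelope and is made most in proliferating cells, stood at 121 and 145 CPM with siControl and 36.6 and 87.97 CPM with siZBED2-2 in RT112, and 96.9 and 87.3 CPM against 34.2 and 37.8 CPM in SCaBER. The same RT112 library was again the highest under siZBED2-2, and the log2 fold change was -1.21 ± 0.19 (adjusted p = 0.00251). RCC1, the exchange factor that loads Ran with GTP on chromatin, stood at 72.3 and 84.1 CPM with siControl and 26.004 and 45.8 CPM with siZBED2-2 in RT112, and 63.1 and 78.4 CPM against 26.3 and 43.7 CPM in SCaBER. It fell by 1.06 ± 0.19 with no overlap of the groups (adjusted p = 0.00699).

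Further genes that fell had varied roles. CDC123, an assembly factor of the initiation factor eIF2, stood at 86.5 and 88.5 CPM with siControl and 43.5 and 60.3 CPM with siZBED2-2 in RT112, and 55.3 and 62.997 CPM against 28.1 and 28.1 CPM in SCaBER, and changed by -0.90 ± 0.15 (adjusted p = 0.00421). SRP19, a protein of the signal recognition particle, changed by -1.22 ± 0.23 (adjusted p = 0.0125), and ESF1, a nucleolar factor of ribosomal RNA processing, by -0.65 ± 0.10 (adjusted p = 0.00222). KIF5B, the heavy chain of kinesin-1, fell by 0.55 ± 0.089 and PCDH1, a protocadherin of epithelia, by 0.61 ± 0.10 on the log2 scale (adjusted p = 0.00377 and 0.00357). CAVIN1, a coat protein of caveolae, and SERPINH1, the collagen chaperone HSP47, were far more abundant in SCaBER, where siControl libraries stood at 1432 and 1328 CPM and 352 and 369 CPM, than in RT112, where they stood at 37.4 and 47.1 CPM and 10.1 and 12.7 CPM. The joint changes of these were -0.62 ± 0.11 and -0.63 ± 0.12 (adjusted p = 0.00566 and 0.0134). PDCD4, which restrains the helicase eIF4A, stood at 26.9 and 29.4 CPM with siControl and 14.5 and 19.7 CPM with siZBED2-2 in RT112, and 36.7 and 30.9 CPM against 8.33 and 9.48 CPM in SCaBER. All 4 libraries were below their controls, and the change was -1.29 ± 0.26 (adjusted p = 0.0186), a call that was lost without either SCaBER siZBED2-2 library (-1.13 without replicate 1 and -1.17 without replicate 2). SRP19 was at -1.08 and SERPINH1 at -0.57 without SCaBER siZBED2-2 replicate 1, and at -1.10 and -0.60 without SCaBER siControl replicate 2, and did not pass there.

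Genes that rose included actin regulators, enzymes and secretory proteins. MPRIP (chr17:17042457-17192643), which brings myosin phosphatase to actin filaments, stood at 208 and 191 CPM with siControl and 371 and 389.5 CPM with siZBED2-2 in RT112, and 36.9 and 49.6 CPM against 97.4 and 89.2 CPM in SCaBER. It was higher in all 4 libraries, by 1.02 ± 0.11 (adjusted p = 5.64e-05). DDAH1 (chr1:85318485-85578200), an enzyme that breaks down methylated arginines that inhibit nitric oxide synthesis, stood at 12.9 and 14.3 CPM with siControl and 32.03 and 28.3 CPM with siZBED2-2 in RT112, and 35.7 and 32.1 CPM against 109.96 and 104 CPM in SCaBER. Its groups were widely apart in both lines, and the log2 fold change of 1.44 ± 0.16 was the largest among the 12 higher genes with the smallest p-values (adjusted p = 1.42e-04). CALU (chr7:128739359-128773400) stood at 102 and 80.7 CPM with siControl and 275 and 232 CPM with siZBED2-2 in RT112, and 141 and 156 CPM against 279 and 221 CPM in SCaBER, with all 4 siZBED2-2 libraries above every control of either line, and changed by 1.12 ± 0.14 (adjusted p = 2.72e-04).

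Other abundant transcripts rose by smaller steps. LDHA stood at 519 and 455 CPM with siControl and 938 and 769.6 CPM with siZBED2-2 in RT112, and 366 and 374 CPM against 588 and 579.7 CPM in SCaBER, and its groups did not overlap (log2 fold change 0.74 ± 0.089, adjusted p = 2.49e-04). TPM3, a tropomyosin of non-muscle actin filaments, and RPLP0, a protein of the large ribosomal subunit stalk, changed by 0.67 ± 0.083 and 0.63 ± 0.079 (adjusted p = 2.72e-04 for both). LDHA, TPM3 and RPLP0 have near-identical pseudogenes, between which the counting could have split reads, so their levels are uncertain. SKAP2, an adaptor of Src family signalling, stood at 57.2 and 69.6 CPM with siControl and 106 and 143 CPM with siZBED2-2 in RT112, and 49.2 and 58.4 CPM against 114 and 112 CPM in SCaBER, higher in all 4 libraries by 1.03 ± 0.13 (adjusted p = 2.72e-04). GLTP, a glycolipid transfer protein, and RBM47, an RNA-binding protein of epithelial cells, rose by 1.08 ± 0.14 and 1.01 ± 0.13 (adjusted p = 2.72e-04 for both). RAB7A rose by 0.79 ± 0.11, the long non-coding RNA SNHG16 by 0.73 ± 0.10 and TINAGL1, a secreted matrix protein, by 0.61 ± 0.082 (adjusted p = 4.66e-04, 3.62e-04 and 4.76e-04).

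The remaining called genes, chosen here by function after their values were seen, held several of membrane traffic and the cell surface. SRPRA, the receptor of the signal recognition particle, stood at 30.98 and 38.6 CPM with siControl and 57.1 and 66.02 CPM with siZBED2-2 in RT112, and 13.9 and 21.7 CPM against 46.8 and 44.4 CPM in SCaBER. All 4 siZBED2-2 libraries were above their controls, by 1.09 ± 0.18 (adjusted p = 0.00508), whereas SRP19, a part of the particle it receives, fell. ATP13A3, a transporter of polyamines, EHD1, which shapes recycling endosomes, and ATP6V1D, a subunit of the proton pump of lysosomes, rose by 0.57 ± 0.12, 0.46 ± 0.092 and 0.57 ± 0.13 (adjusted p = 0.0208, 0.0208 and 0.0475). LIMS1, the focal adhesion protein PINCH, and LAD1, a filament protein of the epithelial basement membrane zone, rose by 0.63 ± 0.12 and 0.66 ± 0.12 (adjusted p = 0.0135 and 0.00702). WASF2, which activates branching of actin filaments, rose by 0.48 ± 0.087 and CAV2, a caveolin, by 0.52 ± 0.11 (adjusted p = 0.00968 and 0.0378), while the caveolar coat gene CAVIN1 fell. YWHAZ, a 14-3-3 adaptor, rose by 0.44 ± 0.079 (adjusted p = 0.00845). Of the 8 fits without 1 library, ATP13A3 lost its call in 3, EHD1 in 5, ATP6V1D in 6 and CAV2 in 4, and LIMS1, WASF2 and YWHAZ in 1 each.

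Several metabolic enzymes and carriers were also among the genes that rose, picked after their values were seen and not tested as a group. CPT1A, which commits fatty acids to oxidation, stood at 18.1 and 24.8 CPM with siControl and 42.4 and 43.2 CPM with siZBED2-2 in RT112, and 142 and 115 CPM against 203 and 193 CPM in SCaBER. It was higher in all 4 libraries, by 0.79 ± 0.13 (adjusted p = 0.00495). SQOR, a mitochondrial enzyme that oxidises sulfide, changed by 1.19 ± 0.20, and SLC25A1, the carrier of citrate out of mitochondria, by 0.50 ± 0.094 (adjusted p = 0.00526 and 0.0119). CERS6, a ceramide synthase, and NCEH1, a cholesterol ester hydrolase, changed by 0.58 ± 0.13 and 0.48 ± 0.11 (adjusted p = 0.0494 and 0.0475), calls lost in each of the 8 fits without 1 library. SLC25A1 lost its call in 1 of the 8.

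Some regulators in the nucleus, picked in the same way, were also among the genes that rose. SETD7, a lysine methyltransferase, stood at 7.53 and 9.79 CPM with siControl and 21.7 and 29.9 CPM with siZBED2-2 in RT112, and 16.2 and 11.2 CPM against 32.03 and 32.1 CPM in SCaBER. Its groups were apart in both lines, and it changed by 1.398 ± 0.23 (adjusted p = 0.00443). ZBTB7A, a zinc finger repressor, SON, a splicing factor of nuclear speckles, and HDAC1, a histone deacetylase, rose by 0.67 ± 0.10, 0.68 ± 0.10 and 0.49 ± 0.10 (adjusted p = 0.00221, 0.00145 and 0.0248). ALKBH5, an RNA demethylase, rose by 0.62 ± 0.12 and KPNA3, an importin, by 0.65 ± 0.12 (adjusted p = 0.0138 and 0.00968). STK3, the Hippo kinase MST2, rose by 0.73 ± 0.15 (adjusted p = 0.0289). STK3 and HDAC1 each lost the call in 6 of 8 fits without 1 library, and ALKBH5 and KPNA3 in 1.

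Growth factors were read with more caution, because their calls rested on 1 line. EREG, a ligand of the EGF receptor, had no count in the 4 RT112 libraries and stood at 174 and 221 CPM with siControl and 344 and 352 CPM with siZBED2-2 in SCaBER, with a joint value of 0.82 ± 0.16 (adjusted p = 0.0219) that is a SCaBER value. INHBA, a chain of activin, stood at 6.24 and 5.98 CPM with siControl and 16.02 and 6.05 CPM with siZBED2-2 in RT112, and 109 and 84.1 CPM against 203 and 161 CPM in SCaBER. The RT112 groups overlapped, and the joint change of 0.90 ± 0.20 only just passed (adjusted p = 0.0490). The call was lost in 6 of 8 fits without 1 library for INHBA and in 3 of 8 for EREG. Of the remaining genes that fell, CDC37L1, a cochaperone of HSP90, changed by -1.08 ± 0.24, SUCO, a protein of the endoplasmic reticulum, by -0.56 ± 0.13 and TENT5A, a poly(A) polymerase, by -0.65 ± 0.15 (adjusted p = 0.0385, 0.0475 and 0.0494). These calls were lost in 7, 7 and 6 of 8 fits without 1 library, and that of TENT5A also with the replicate block. SCARNA22, a guide RNA of Cajal bodies, overlaps another gene, so its count is uncertain (-0.79 ± 0.17, adjusted p = 0.0323, lost in 4 of 8 such fits).

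The question of whether both lines responded alike was addressed in each line alone and by a test of the difference. RT112 gave 22 calls among 13264 genes (0.166%), with 18 upward and 4 downward. In SCaBER the number was 82 of 13129 (0.625%), 56 higher and 26 lower. The test of the difference between the lines called 0 of 14823 genes by edgeR (0%), with 719 at an unadjusted p under 0.05, and DESeq2 called 2. The RT112 number rose most when siZBED2-2 replicate 1 was left out and fell most when siControl replicate 2 was left out. For SCaBER, leaving out siZBED2-2 replicate 1 gave 34 calls, and leaving out siControl replicate 2 gave 51. With the replicate number as a block, 44 genes were called in RT112 and 125 in SCaBER.

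The jointly called genes were read in each line as a description, since the joint call used the same libraries. In RT112 all 65 of the higher genes that were tested there had a positive log2 fold change, with a median of 0.65, and 14 were called. In SCaBER it was all 64, with a median of 0.70 and 43 called. The 23 lower genes were negative in both lines with a median of -0.72 in each, and 3 were called in RT112 and 17 in SCaBER. The lines shared 13 calls, namely CALU, GLTP, GXYLT1, MPRIP, PRDX1, RAB7A, RBM47, RPLP0, SKAP2 and TPM3 upward and EIF3J, NORAD and PPIF downward, which was 13 of 22 calls in RT112 and 13 of 82 in SCaBER. Of these 13, EIF3J, MPRIP and PPIF kept the call in both lines in every fit without 1 library of the line. PRDX1 lost its SCaBER call in 4 of 4 such fits, RAB7A and GXYLT1 theirs in 3, TPM3 its RT112 call in 3, and RBM47 its call in 3 of 4 in either line. A further 25 of the 89 genes were called in neither line alone. EIF3J changed by -0.92 in RT112 and -1.13 in SCaBER, and CALU by 1.47 in RT112 and 0.75 in SCaBER.

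**Figure D2:**
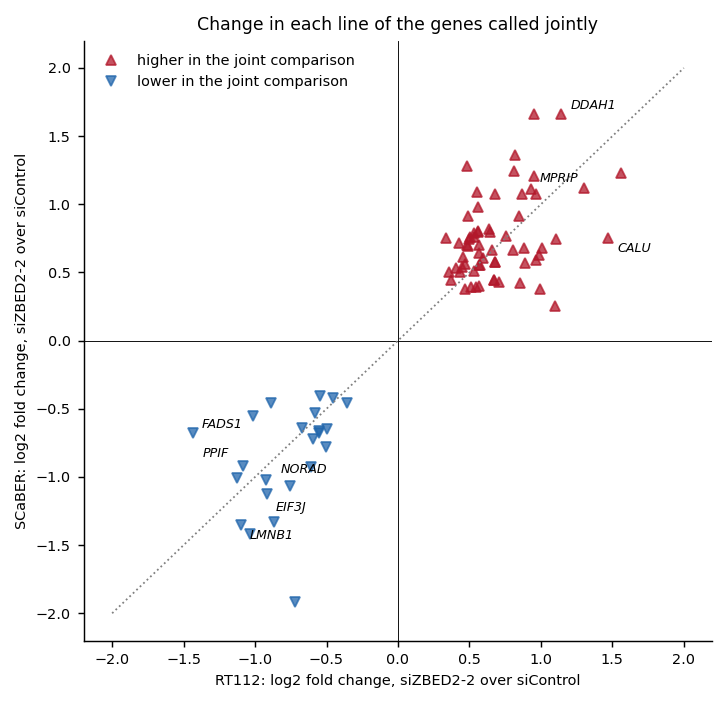
Log2 fold change of siZBED2-2 over siControl in RT112 (horizontal axis) and in SCaBER (vertical axis) for the genes called jointly and tested in both lines. Red triangles are genes that were higher and blue triangles genes that were lower; all points lie in the quadrants of equal sign, as the joint call on these same libraries favours.

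Of the calls, 9 of 22 in RT112 and 69 of 82 in SCaBER were made in that line only. A call in 1 line does not show that the other line was unchanged. PLEKHB2, GIPC1, FAM49B and HSPB1, described next, were also among the 89 joint calls. With the replicate block HSPB1 was called in RT112 as well (0.49, adjusted p = 0.0315 by edgeR). PLEKHB2, a membrane protein with a pleckstrin homology domain, stood at 82.2 and 81.04 CPM with siControl and 176 and 175 CPM with siZBED2-2 in RT112, and both siZBED2-2 libraries were above both controls (log2 fold change 1.10 ± 0.15, adjusted p = 3.83e-04). In SCaBER its value was 0.26 ± 0.15 (adjusted p = 0.747). MYADM, a membrane protein of the myeloid-associated family, stood at 92.3 and 93.9 CPM with siControl and 43.3 and 42.2 CPM with siZBED2-2 in RT112 and fell by 1.13 ± 0.22 (adjusted p = 0.0162), with -0.11 ± 0.26 in SCaBER (adjusted p = 0.975). The RT112 call of MYADM was lost without any 1 of the 4 RT112 libraries, at -1.16 to -1.10. SERPINE2, a secreted inhibitor of thrombin and plasminogen activators, stood at 42.01 and 30.7 CPM with siControl and 4.26 and 8.52 CPM with siZBED2-2 in SCaBER. It fell by 2.49 ± 0.39 (adjusted p = 3.79e-04), and it stood at 0 to 1.21 CPM in the 4 RT112 libraries. GIPC1, a scaffold of receptor trafficking, stood at 44.9 and 33.9 CPM with siControl and 111 and 79.7 CPM with siZBED2-2 in SCaBER and rose by 1.28 ± 0.18 (adjusted p = 2.04e-04). FAM49B and HSPB1, a regulator of actin and the small heat shock protein HSP27, rose by 1.09 ± 0.16 and 0.91 ± 0.12 in SCaBER (adjusted p = 2.13e-04 and 4.61e-05). None of these passed the test of the difference between the lines, where the adjusted p was 0.519 for PLEKHB2, 0.967 for MYADM, 0.967 for SERPINE2 and 0.967 for GIPC1.

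All 24 libraries were then read for the called genes, to see which treatments stood apart. The 66 higher genes were above siControl with every siRNA: their median log2 difference from the siControl mean of the line was 0.61 to 0.73 in the siZBED2-2 libraries, 0.67 to 0.79 with siZBED2-1, 0.47 to 0.62 with siFOXA1 and 0.77 to 0.91 in the combined treatments. The 23 lower genes had a median of -0.91 to -0.54 with siZBED2-2 and of -0.78 to -0.35 with siFOXA1 and siZBED2-2 together, but of -0.093 to -0.018 with siZBED2-1 and of -0.25 to -0.0073 with siFOXA1. All these differences share the siControl libraries, with which the genes were chosen, so they are values set side by side and no measure of likeness.

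**Figure D3:**
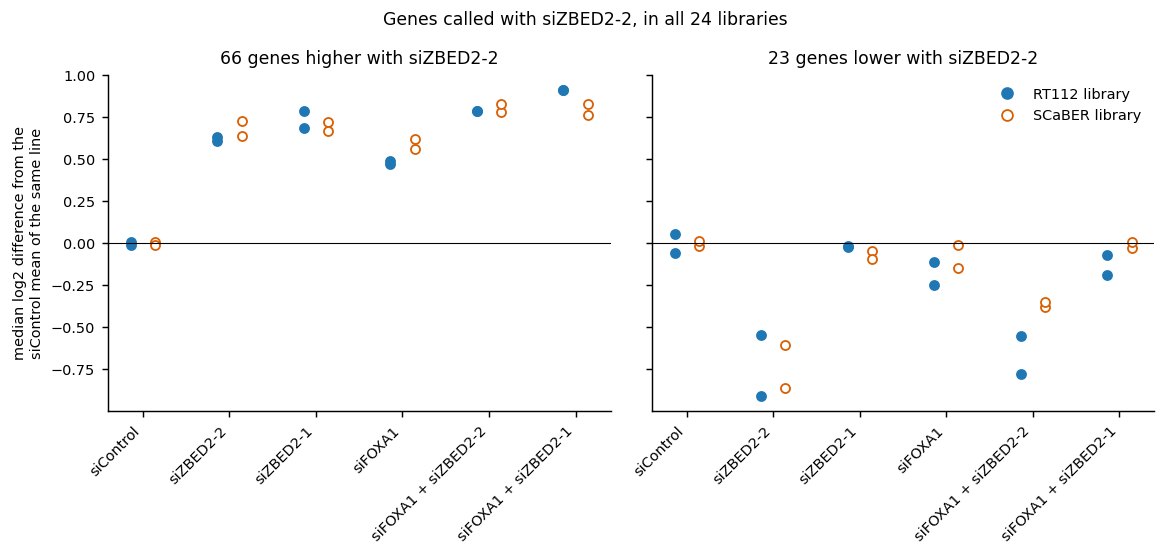
Median log2 difference from the siControl mean of the same line (vertical axis) over the 66 genes that were higher (left) and the 23 that were lower (right) with siZBED2-2, in each of the 24 libraries by treatment. Filled points are RT112 and open points SCaBER; the higher genes lay above 0 in every treatment other than siControl, and the lower genes lay farthest below 0 in the siZBED2-2 and siFOXA1 + siZBED2-2 libraries.

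The order of the 12 libraries of each line was also read gene by gene. Of the 66 higher genes, 29 had both siControl libraries of each line below the other 10 libraries of the line, against 0.63% of all genes tested. CALU, MPRIP, DDAH1, TPM3, RAB7A, PRDX1, HSPB1 and SKAP2 were among these. In 2 of the 66, NUCKS1 and SLC25A1, the 4 libraries of each line with siZBED2-2, alone or combined, were above the other 8 (0.0222% of all genes). Of the 23 lower genes, CDC123, EIF3J, NORAD and PPIF had those 4 libraries below the other 8 in both lines, a pattern of 0.0445% of all genes. As many of the 23, C7orf50, FADS1, LMNB1 and POLA1, had both siControl libraries of each line above the other 10 (0.541% of all genes). Part of each pattern was fixed by the choice of the genes, and no test was made of it.

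The siRNAs against ZBED2 were also compared directly, with the line as block, a comparison added after the data were seen. It called 676 of 13495 genes (5.01%). Of the 23 genes lower on siControl, 17 were called lower with siZBED2-2 than with siZBED2-1, and of the 66 higher genes 6 were called higher and 5 lower. The siZBED2-2 libraries are shared with the comparison that chose these genes, so the counts are a description. ZBED2 itself had counts that were higher with siZBED2-2 than with siZBED2-1, by 1.81 ± 0.61 on the log2 scale, which did not pass (adjusted p = 0.101). EIF3J was at 263 and 271 CPM in RT112 and 539 and 474 CPM in SCaBER with siZBED2-1, and was lower with siZBED2-2 by 1.23 ± 0.14 (adjusted p = 8.39e-05). NORAD stood at 342 and 417 CPM and 172 and 166 CPM with siZBED2-1, a difference of -1.31 ± 0.16 (adjusted p = 1.27e-04), and PPIF differed by -0.97 ± 0.12 (adjusted p = 1.44e-04). LMNB1, POLA1 and FADS1 were among the lower genes that did not pass this test, and LMNB1 stood at 77.2 and 60.6 CPM in RT112 and 53.9 and 41.5 CPM in SCaBER with siZBED2-1 (difference -0.27 ± 0.22, adjusted p = 0.573). Of the genes that rose, CALU differed between the siRNAs by -0.031 ± 0.14 (adjusted p = 0.943), MPRIP by -0.077 ± 0.11 (adjusted p = 0.773) and DDAH1 by -0.25 ± 0.14 (adjusted p = 0.362), and a p above the threshold does not show equal levels. HMGA2 was higher with siZBED2-1 than with siZBED2-2, with a difference of -0.99 ± 0.21 (adjusted p = 0.00920).

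The same siRNA was read a further time where FOXA1 was also targeted. The siFOXA1 + siZBED2-2 libraries were compared with the siFOXA1 libraries of both lines, 4 on each side and none of them shared with the comparison on siControl. The levels of FOXA1 and ZBED2 in these libraries are not given in the text. It is therefore not shown here that FOXA1 was equally low on both sides, and no test of ZBED2 between them is given. The changes on siFOXA1, here and below, are differences between these treatments. Of 13159 genes tested, 135 were higher (1.03%) and 143 lower (1.09%). The number depended on single libraries. It was 90 without SCaBER siFOXA1 replicate 1, 157 without SCaBER siFOXA1 replicate 2, 157 and 139 without replicate 1 or 2 of siFOXA1 + siZBED2-2 in SCaBER, 183 and 164 without those in RT112, and 424 without RT112 siFOXA1 replicate 1. With the replicate block it was 460, of which 277 were among the 278 of the fit without it. The genes that siZBED2-2 lowered on siControl were again mostly lower, and most of those that it raised were again higher, with a smaller median. Of the 23 lower genes, 21 had a negative log2 fold change on siFOXA1 (91.3%, against 50.5% of all genes), with a median of -0.36, and 6 were called lower: EIF3J, PPIF, CDC123, CDC37L1, SUCO and TENT5A. Of the 66 higher genes, 51 were positive (77.3%, against 49.5% of all genes), with a median of 0.20, and 12 were called higher: CAV2, HMGA2, LDHA, LMLN, MPRIP, NUCKS1, PRR11, RPLP0, SNHG16, TPM3, WASF2 and YBX3. In the 8 fits without 1 library, the calls on siFOXA1 were lost in 6 for CDC37L1, SUCO and TPM3, in 7 for WASF2, in 3 for CDC123, in 2 for LMLN and in 1 for CAV2 and HMGA2, and were kept in all 8 for the others named. The shared calls were 18.2% of the higher and 26.1% of the lower genes on siControl, and 8.89% of the higher and 4.20% of the lower genes on siFOXA1.

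EIF3J stood at 170.3 and 169.6 CPM with siFOXA1 and 99.4 and 114 CPM with both siRNAs in RT112, and at 377 and 329.96 CPM against 199.6 and 199 CPM in SCaBER. The groups did not overlap, and EIF3J fell by 0.77 ± 0.10 (adjusted p = 0.00140). PPIF changed by -0.58 ± 0.11 (adjusted p = 0.0119), and NORAD by -0.48 ± 0.13, which did not pass (adjusted p = 0.0683, or 0.0373 with the replicate block). LDHA stood at 229 and 163 CPM with siFOXA1 and 692 and 455 CPM with both in RT112, and at 237 and 319 CPM against 367 and 453 CPM in SCaBER. All 4 double knock-down libraries were above their siFOXA1 controls, by 1.04 ± 0.19 (adjusted p = 0.00956). YBX3, a cold shock domain protein that binds mRNA, rose by 0.70 ± 0.11 on siControl and 0.79 ± 0.13 on siFOXA1 (adjusted p = 0.00207 and 0.00454), and HMGA2, an architectural chromatin protein of the basal transcription factor list, by 0.65 ± 0.13 and 0.89 ± 0.19 (adjusted p = 0.0191 and 0.0229).

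Whether the effect differed between the backgrounds was tested as an interaction over all 24 libraries, which called 200 of 14823 genes (1.35%). Without RT112 siFOXA1 replicate 1 the number was 425, without RT112 siFOXA1 replicate 2 it was 97 and without SCaBER siZBED2-2 replicate 1 it was 131, and with the replicate block it was 352. CALU and DDAH1 changed by 0.10 ± 0.10 and 0.20 ± 0.17 on siFOXA1 (adjusted p = 0.714 and 0.633), and the interaction was -1.02 ± 0.15 and -1.21 ± 0.22 (adjusted p = 4.07e-04 and 0.00227). LMNB1 changed by 0.050 ± 0.22 on siFOXA1 (adjusted p = 0.945), against the fall on siControl, with an interaction of 1.27 ± 0.32 (adjusted p = 0.0374), which was lost in 6 of 16 fits without 1 library. For EIF3J and PPIF the interaction was 0.25 ± 0.14 and 0.42 ± 0.14 and did not pass (adjusted p = 0.476 and 0.160).

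**Figure D4:**
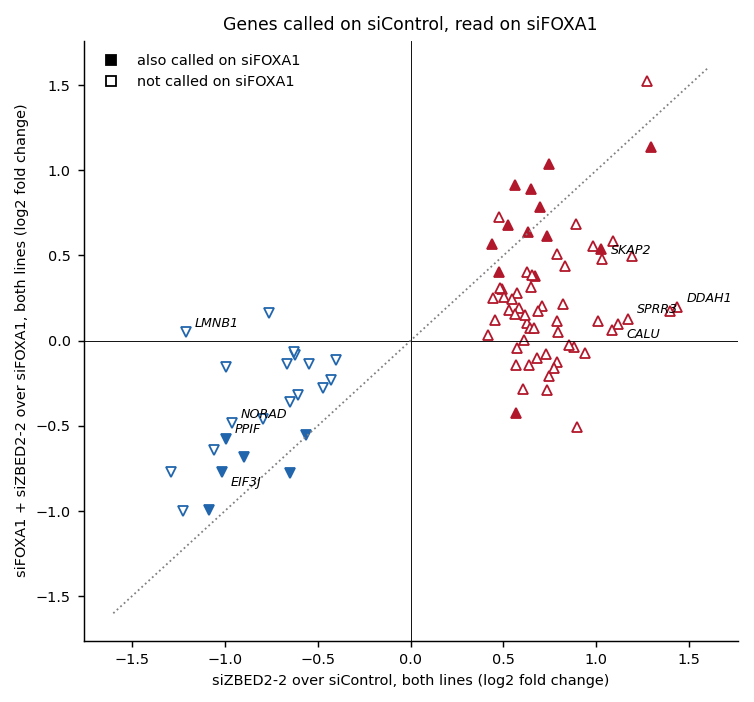
Log2 fold change of siZBED2-2 over siControl (horizontal axis) and of siFOXA1 + siZBED2-2 over siFOXA1 (vertical axis), both lines with the line as block, for the genes called on siControl. Filled symbols were also called on siFOXA1, open symbols were not, and the dotted line marks equal change; DDAH1 and CALU lie near 0 on the vertical axis.

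The interferon pathway, for which ZBED2 was targeted in the study, was described from its effectors to its targets. STAT2, a transcription factor of the response to type I interferon, stood at 11.8 and 11.97 CPM with siControl and 19.97 and 17.1 CPM with siZBED2-2 in RT112, and 21.3 and 18.3 CPM against 42.8 and 35.7 CPM in SCaBER. The siZBED2-2 libraries were above the controls in both lines, and the joint change of 0.83 ± 0.21 did not pass (adjusted p = 0.0973). In SCaBER alone it rose by 0.99 ± 0.22 (adjusted p = 0.0203), a call lost without either siControl library or siZBED2-2 replicate 1 (0.86 to 1.13), and in RT112 the value was 0.64 ± 0.31 (adjusted p = 0.872). On siFOXA1 STAT2 fell by 0.87 ± 0.18 (adjusted p = 0.0208), from 53.02 and 44.5 CPM to 38.8 and 28.9 CPM in RT112 and from 109 and 149 CPM to 49.99 and 66.6 CPM in SCaBER, and the interaction was -1.67 ± 0.26 (adjusted p = 4.07e-04). The call on siFOXA1 was lost in 3 of 8 fits without 1 library, each time a SCaBER library, and the interaction in none of 16.

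IRF1 and IRF9, effectors of the IRF family, gave no call. IRF1 differed by -0.16 ± 0.13 (adjusted p = 0.825) and IRF9 by -0.58 ± 0.69 (adjusted p = 0.907). IFNAR2, a chain of the type I interferon receptor, was at -0.68 ± 0.18 (adjusted p = 0.132). CD274, which encodes the immune checkpoint ligand PD-L1, stood at 1.51 and 1.09 CPM with siControl and 2.83 and 2.59 CPM with siZBED2-2 in RT112, and 3.42 and 5.62 CPM against 6.11 and 3.86 CPM in SCaBER. The RT112 groups did not overlap and the SCaBER groups did, at levels of a few CPM, and the change of 0.57 ± 0.59 did not pass (adjusted p = 0.894). Of 22 genes tested of interferon receptors, JAK, STAT and IRF, 11 were positive, with a median of 0.0013, and 0 were called by edgeR in either direction, with 3 at an unadjusted p under 0.05.

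The targets gave no call either. Of 65 interferon-stimulated genes tested, 32 were positive and 0 were called in either direction, with 2 at an unadjusted p under 0.05. Their median log2 fold change was -0.014, beside 0.0019 over all genes, of which 50.4% were positive. By library the median was -0.14 and -0.026 in RT112 and -0.038 and 0.15 in SCaBER. RSAD2, the antiviral enzyme viperin, was at 0.95 ± 0.32 (adjusted p = 0.338) and CXCL11, a chemokine for T cells, at 0.84 ± 0.34 (adjusted p = 0.512). In SCaBER alone both passed with the replicate block (0.87 and 0.76, adjusted p = 0.00591 and 0.0240). On siFOXA1 the same list had a median of -0.66, with 2 of 64 positive, 6 called lower and 42 at an unadjusted p under 0.05, where 1.09% of all genes were called lower and 2061 of 13159 were at an unadjusted p under 0.05. The count of 6 was 2 without SCaBER siFOXA1 replicate 1 or 2 or SCaBER siFOXA1 + siZBED2-2 replicate 1, 3 without RT112 siFOXA1 + siZBED2-2 replicate 2, 26 without replicate 1 of that group and 27 without RT112 siFOXA1 replicate 2. It was 31 with the replicate block and 39 without a filter, and the median stayed negative in all these fits. CXCL11 was among those called there (-1.09 ± 0.26, adjusted p = 0.0387), a call lost in 3 of 8 fits without 1 library. The test of the difference between the backgrounds called 1 of the 65 genes, lower on siFOXA1, and their median interaction was -0.54. Over all genes that test called 102 of 14823 lower.

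The promoters of the called genes were searched for the interferon-stimulated response element in its strict form, GAAANNGAAA on either strand, in the 250 bases before and 50 bases after the start of each gene (RefSeq, GRCh38.p14). A window is shown for CD274, the checkpoint gene of the pathway, and for TFG, the only called gene with a match, with the matched bases in capitals, read on the plus strand at chr9:5450324-5450353 for CD274 and at chr3:100709241-100709270 for TFG.
CD274: gactgacatgTTTCACTTTCtgtttcattt
TFG: ccattggcgaGAAACGGAAAtacccgcttt
The CD274 match reads GAAANNGAAA on the minus strand and overlaps another match, and TFG had another at chr3:100709114-100709143. Of the 66 genes that rose, 52 had a promoter sequence and 1 held a match, TFG (1.92%). Of the 23 that fell, 18 had a promoter and 0 held a match. The share was 3.65% of all 27305 promoters, 2.73% of the 9721 promoters of genes tested and 63.6% of the 55 promoters of the interferon list. TFG, which organises the sites where cargo leaves the endoplasmic reticulum, rose by 0.42 ± 0.091 (adjusted p = 0.0345), a call lost in 7 of 8 fits without 1 library. A match is a description of these letters and says nothing of binding.

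The cell cycle lists lay slightly below 0. Of 39 DNA replication and S phase genes, 8 were positive, with a median of -0.14, where 50.4% of all genes were positive. The median was -0.073 in RT112 alone and -0.18 in SCaBER alone. By library it was -0.19 and -0.017 in RT112 and -0.19 and -0.17 in SCaBER. Jointly 4 of the 39 had an unadjusted p under 0.05, beside 1028 of 13492 over all genes. Only 1 was called lower, where 0.17% of all genes were. This was POLA1, the catalytic subunit of the polymerase that starts each DNA strand, at 43.03 and 34.6 CPM with siControl and 26.2 and 24.7 CPM with siZBED2-2 in RT112, and 58.7 and 51.2 CPM against 31.5 and 26.2 CPM in SCaBER (log2 fold change -0.76 ± 0.17, adjusted p = 0.0436). All 4 of its siZBED2-2 libraries were below their controls, and the call was lost in 7 of 8 fits without 1 library (-0.82 to -0.68). Of 44 mitosis genes, 9 were positive and the median was -0.13, with 0 called by edgeR and 4 at an unadjusted p under 0.05. This median was -0.18 in RT112 alone and -0.070 in SCaBER alone. On siFOXA1 the medians were 0.41 and 0.76, with 38 of 39 and 43 of 44 genes positive and 2 and 17 called higher, beside 1.03% of all genes. Without 1 library the counts ran from 0 to 9 and from 6 to 32, lowest without SCaBER siFOXA1 replicate 1 and highest without RT112 siFOXA1 replicate 1. The interaction called 2 and 17 of them upward, beside 98 of 14823 over all genes. CDC25B, a phosphatase that activates mitotic kinases, was at -0.33 ± 0.10 on siControl (adjusted p = 0.233) and rose by 0.62 ± 0.14 on siFOXA1 (adjusted p = 0.0298, lost in 5 of 8 fits without 1 library), with an interaction of 0.94 ± 0.18 (adjusted p = 0.00511). UBE2C, the ubiquitin carrier of the anaphase-promoting complex, was at -0.22 ± 0.10 on siControl and 0.67 ± 0.19 on siFOXA1, and passed neither test (adjusted p = 0.623 and 0.0738, the latter 0.0111 with the replicate block), with an interaction of 0.90 ± 0.22 (adjusted p = 0.0293), which was lost in 4 of 16 fits without 1 library.

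Among genes of urothelial identity, most basal and squamous markers had a positive joint log2 fold change, and few were called. Of 38 such markers tested, 30 were positive, the median was 0.30, 16 had an unadjusted p under 0.05 and 2 were called higher, where 50.4% of all genes were positive, 1028 of 13492 had an unadjusted p under 0.05 and 0.489% were called higher. In SCaBER 29 of 36 were positive with a median of 0.32 and 4 called higher, and in RT112 18 of 31 with a median of 0.12 and 1 called higher. Over all genes, 56 of 13129 were called higher in SCaBER and 18 of 13264 in RT112. By library, the median difference of the 38 markers from the siControl mean of the line was 0 and 0 in RT112. In SCaBER it was 0.33 and 0.27. On siFOXA1 18 of 35 were positive, with a median of 0.014 and 2 called lower, where 1.09% of all genes were called lower. SPRR3, a precursor of the cornified envelope, was among the joint calls. In RT112 SPRR3 stood at 67.1 and 75.6 CPM with siControl against 186 and 126 CPM with siZBED2-2, and in SCaBER at 0 to 1.93 CPM. SPRR3 rose by 1.17 ± 0.24 (adjusted p = 0.0219), a call that rested on RT112 and was lost without RT112 siControl replicate 1 (1.11), RT112 siControl replicate 2 (1.27) or RT112 siZBED2-2 replicate 1 (0.93), and by 1.13 ± 0.18 in RT112 (adjusted p = 0.00266, lost in 1 of 4 fits without 1 library).

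Transcription factors of the basal network had a median of 0.018 over 23 genes with HMGA2 called higher, and those of the luminal network -0.10 over 19 with 0 called and 2 at an unadjusted p under 0.05. HMGA2 stood at 10.5 and 7.61 CPM with siControl and 10.6 and 14.9 CPM with siZBED2-2 in RT112, and 353 and 329 CPM against 620.3 and 487 CPM in SCaBER, higher in all 4 libraries, and its call was lost without SCaBER siZBED2-2 replicate 1 (0.51) or SCaBER siControl replicate 2 (0.60). FOXA1 stood at 41.3 and 40.8 CPM with siControl and 47.5 and 31.1 CPM with siZBED2-2 in RT112, and 3.80 and 5.62 CPM against 4.63 and 3.21 CPM in SCaBER, with overlapping groups in both lines (log2 fold change -0.13 ± 0.24, adjusted p = 0.945). ELF3 and TBX3, luminal factors, were at -0.34 ± 0.12 and -0.43 ± 0.17 (adjusted p = 0.418 and 0.492). Of 19 luminal differentiation markers the median was 0.016, and UPK3B, a uroplakin of the umbrella cell surface, was called higher (1.27 ± 0.29, adjusted p = 0.0475), a call lost in 5 of 8 fits without 1 library. It stood at 26.5 and 25.02 CPM in the RT112 siControl libraries against 61.2 and 61.5 CPM with siZBED2-2, and at 0 and 0.401 CPM against 0.555 and 0.482 CPM in SCaBER.

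**Figure D5:**
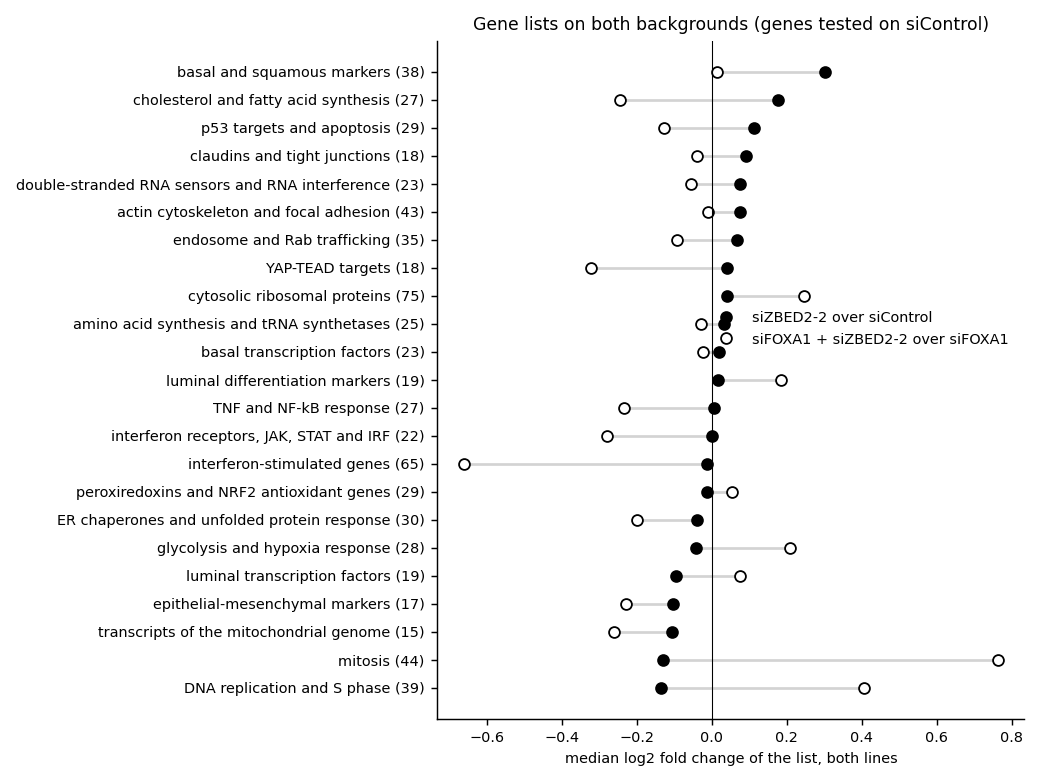
Median log2 fold change over each gene list (horizontal axis), with the number of genes tested on siControl in brackets. Filled points give siZBED2-2 over siControl and open points siFOXA1 + siZBED2-2 over siFOXA1, both lines together; the interferon list went from near 0 to -0.66, mitosis from -0.13 to 0.76, and basal and squamous markers from 0.30 to 0.014.

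The genes whose log2 CPM followed ZBED2 most closely over the 24 libraries, of 14822 examined, were HSP90AA1 (Pearson r 0.853), a cytosolic chaperone, YWHAH (0.829), a 14-3-3 protein, and FIGNL1 (0.829), an ATPase of DNA repair. The libraries share treatments and lines, so this is a description. With siZBED2-2 on siControl HSP90AA1 was at -0.25 ± 0.072, YWHAH at -0.068 ± 0.13 and FIGNL1 at -0.13 ± 0.17, and none passed (adjusted p = 0.187, 0.945 and 0.917).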

How the data were processed

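The deposited table of raw counts per gene, made by the authors, was used. Libraries were prepared with the QuantSeq FWD 3′ mRNA kit and sequenced single-end. Per the labels, the submitters' processing notes and a pipeline configuration deposited with the tables, reads were trimmed with TrimGalore 0.6.2 (minimum quality 20, minimum length 10) and counted with STAR 2.6.1a on hg38 with GENCODE 29. The study's methods name hg19 for RNA-seq. Counting at transcript ends measures ends, not whole transcripts. A deposited TPM table by the authors served only in an alternative.

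The 8 libraries were tested with edgeR 4.0.16 in R 4.3.3 (glmQLFit and glmQLFTest, TMM, filterByExpr with minimum count 10 and minimum total 15, line as block) and Benjamini-Hochberg adjustment over all genes tested. The single lines were fitted on their 12 libraries with a mean per group, and the differences between lines and between backgrounds on all 24. Standard errors are the log2 fold change divided by the root of F. No pair of the 8 libraries agreed within sampling noise (lowest chi-square per gene 7.19, over 28 pairs). Named genes were ZBED2, the pathway's effectors, the 12 called genes with the smallest p in each direction whose libraries did not overlap, 4 in each direction for each line, up to 4 called members of each list (or else the 2 with the smallest p) and the 3 genes most like ZBED2. Others named in the text, by function, in shared calls, in patterns over the libraries or for a promoter match, were chosen after their values were seen. Results for some genes are not reported here. The members and lists were chosen with earlier results of these data known. Of 57133 symbols 36080 matched RefSeq. The code was tested on simulated data. limma 3.58.1 on log2(TPM + 1), DESeq2 1.42.0, no filter, a replicate block and leaving out each library were the alternatives. The standard errors hold the spread between libraries as the edgeR fit estimated it, and the labels do not tell whether that spread is technical. Levels near 3 counts rest on few counts.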

Additional observations from a re-analysis of the deposited data

Results flagged for a closer look

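Of 72 genes named by the rule, tested and reported here, 16 differed between the backgrounds, that is, the change with siZBED2-2 on siFOXA1 minus that on siControl passed the edgeR test over all 24 libraries, where 1.35% of all genes did. The genes were partly chosen for a call on siControl, so the share is no measure of its own. The values below are this difference on the log2 scale, and no explanation was weighed.

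Most were less positive on siFOXA1. Among genes that rose on siControl, the difference was -1.02 for CALU, -1.21 for DDAH1, -0.92 for GIPC1, -1.03 for GLTP and -0.51 for HSPB1. It was -0.88 for MSMO1, a sterol oxidase of cholesterol synthesis, -0.79 for PLEKHB2, -0.67 for RAB7A and -0.91 for RBM47. Among genes that were not called on siControl it was -1.67 for STAT2, -1.35 for BIRC3, an inhibitor of apoptosis induced by NF-kB, -0.76 for ITGAV, an integrin alpha chain, and -0.80 for PARD6B, a polarity protein. In 16 fits without 1 library, ITGAV did not pass in 10, HSPB1 in 8, PARD6B in 6, RBM47 in 3 and BIRC3 in 1.

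The opposite sign was seen for 3 genes. LMNB1, which fell on siControl, had a difference of 1.27. CDC25B and UBE2C, both of mitosis, had 0.94 and 0.90. LMNB1 did not pass in 6 of the 16 fits and UBE2C in 4.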

How the results depend on the processing

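No called value of the genes named turned in any alternative. Of 89 joint calls, limma on TPM lost all 89 (0 called, 740 at an unadjusted p under 0.05), scaling to library size alone 23, the replicate block 4 (MYH14, NCEH1, TENT5A and UPK3B) and leaving out 1 library 12 to 45. Without a filter 159 were called, by DESeq2 160, with the replicate block 101, and without 1 library 45 to 96. ZBED2 ran from -1.34 to -0.89 without 1 library jointly and from -1.10 to -0.25 in SCaBER. The mitosis median was -0.086 by limma and -0.15 to -0.087 without 1 library, and that of basal and squamous markers 0.21 to 0.33. In RT112 no filter gave 58 calls, DESeq2 70, the replicate block 44, limma 2 and leaving out a library 14 to 42; limma shifted the median of all genes by 0.104 there. In SCaBER the replicate block gave 125, limma 0 (947 at an unadjusted p under 0.05), the 4 libraries alone 46 and leaving out a library 34 to 81. The line difference gave 26 without a filter, 2 by DESeq2 and 0 to 18 without a library (18 without RT112 siZBED2-2 replicate 1). On siFOXA1 no filter gave 631, DESeq2 620, the replicate block 460, limma 0 (2046 at an unadjusted p under 0.05), a fit of 24 libraries 681 and leaving out a library 90 to 424; for the interaction these were 355, 576, 352 and 97 to 425, limma aside. The labels tag the replicate number as an experiment batch replicate without saying what it shares. Over all genes tested jointly, the differences between replicates 1 and 2 of siControl and siZBED2-2 correlated at 0.0648 in RT112 and 0.0422 in SCaBER. These values also hold counting noise, so they do not tell whether equal replicate numbers shared a batch. A lone library left in a group was assumed to vary like the others. At a median of 5191110 counts, genes of a few CPM such as CD274 were measured with wide error.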

Other observations

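Lists not described above gave few calls with siZBED2-2 on siControl, where 0.66% of all genes were called. Of 75 cytosolic ribosomal protein genes 58 were positive with a median of 0.039. RPLP0 was called higher and RPL27A lower (-0.40 ± 0.081, adjusted p = 0.0208 by edgeR, lost in 2 of 8 fits without 1 library). On siFOXA1 72 of 75 were positive with a median of 0.25 and 13 called higher. There 49.5% of all genes were positive and 1.03% were called higher. Of 27 genes of cholesterol and fatty acid synthesis 20 were positive with a median of 0.18. Within it MSMO1 was called higher (0.61 ± 0.13, adjusted p = 0.0300) and FADS1, a fatty acid desaturase, lower (-0.99 ± 0.22, adjusted p = 0.0447), calls lost in 5 and 3 of 8 fits without 1 library. Of 43 genes of the actin cytoskeleton and focal adhesion 30 were positive with a median of 0.074, and MPRIP and TPM3 were called. Of 35 endosome and Rab trafficking genes 27 were positive with a median of 0.067, and RAB7A was called. PRDX1, a peroxiredoxin, was the call among 29 antioxidant genes (0.56 ± 0.086, adjusted p = 0.00207; list median -0.014).

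CALU was the call among 30 genes of ER chaperones and the unfolded protein response (median -0.040) and LDHA that among 28 of glycolysis and hypoxia (median -0.041). No member was called by edgeR among 27 genes of the NF-kB response (median 0.0058, 3 at an unadjusted p under 0.05), 17 epithelial-mesenchymal markers (-0.10, 4), 18 YAP-TEAD targets (0.042, 0), 25 genes of amino acid synthesis (0.033, 3), 29 p53 targets (0.11, 1), 23 sensors of double-stranded RNA and RNA interference factors (0.074, 3), 18 claudins and tight junction genes (0.090, 3) and 6 markers of other cell types (0.26, 1). Transcripts of the mitochondrial genome had a median of -0.11 over 15 genes with 0 called and 0 at an unadjusted p under 0.05. Their medians by library were 0.23 and -0.95 in RT112 and 0.26 and -0.085 in SCaBER, so RT112 siZBED2-2 replicate 2 stood apart; without it 77 of the 89 joint calls remained.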
